A study of Homo sapiens with 8 samples.

Results

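Dexamethasone-treated Ishikawa cells were compared directly with estradiol-treated Ishikawa cells, to find which genes separate the states set by each hormone alone. The members are all libraries whose labels name either single hormone, 2 with dexamethasone and 2 with estradiol, 4 of the 8 RNA libraries of the series. Ishikawa is an established human endometrial adenocarcinoma line that carries estrogen receptor alpha. The dexamethasone libraries came from cells given dexamethasone at 100 nM and the estradiol libraries from cells given 17-beta-estradiol at 10 nM. Of the 4 libraries outside the comparison, 2 came from cells given the vehicle DMSO and 2 from cells given both hormones. All groups shared phenol red-free RPMI-1640 with charcoal/dextran-treated serum, a medium depleted of steroids, for at least 4 days. The sample labels give 8 hr of treatment and the shared protocol gives 1 hr, and the sources used here do not settle which applies. All results come from 1 cell line, and nothing in the labels states that replicates were separate cultures. P-values therefore reflect only how far these libraries vary, part of which may be technical.

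The glucocorticoid receptor (NR3C1) and estrogen receptor alpha (ESR1) are nuclear receptors that act as transcription factors once a steroid binds them. Dexamethasone is a synthetic agonist of the former, and its bound receptor recognises inverted repeats of AGAACA; estradiol activates the latter, which recognises inverted repeats of GGTCA. In the endometrium estradiol drives proliferation of the epithelium and induces the progesterone receptor, whereas glucocorticoids are known for metabolic, anti-inflammatory and growth-restraining programmes.

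The libraries held between 17846211 and 22487333 counts, with between 16969 and 17507 genes at 1 count or more. Levels below are CPM, counts scaled by TMM to a common library size, which are not per length and are compared only within a gene. Replicates of every group differed by more than sampling noise. The chi-square divided by its degrees of freedom was 26.3 for dexamethasone, 10.2 for estradiol, 18.3 for DMSO and 12.9 for the combination. The ribosomal RNA gene RNA45S5 was included in these values. It took 1.42% of counts in dexamethasone replicate 2 and 2.79% to 4.03% elsewhere. The 10 markers of endometrial epithelium summed to between 3480 and 5040 CPM in the DMSO, dexamethasone and estradiol libraries. Leukocyte markers summed to at most 3.09 CPM, with CD3E, HLA-DRA and CD163 at 0, and endothelial markers to at most 11.7 CPM, with EMCN at 0. The fibroblast markers, mostly COL1A1, summed to between 155 and 158 CPM with estradiol and between 156 and 182 CPM with dexamethasone.

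The dexamethasone replicates differed from each other at the genes that separate the hormones. Of the 249 genes called higher with estradiol (below), 217 (87.1%) had a higher level in dexamethasone replicate 1 than in replicate 2, with a median gap of 0.25 on the log2 scale, against 50.3% of all tested genes. The DMSO libraries differed the same way at 176 of them (70.7%). At the 456 genes called higher with dexamethasone the split ran the other way, with dexamethasone replicate 1 the higher in 100 (21.9%) and DMSO replicate 1 in 151 (33.1%). Values without dexamethasone replicate 1 are given beside the results that it moved.

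Of 14201 tested genes, 705 differed between dexamethasone and estradiol, 4.96% of those tested (edgeR's quasi-likelihood test, Benjamini-Hochberg adjusted p under 0.05). Of these, 456 (3.21%) were higher with dexamethasone and 249 (1.75%) were higher with estradiol. Genes with large differences included TSC22D3, PER1 and LEFTY1 on the dexamethasone side, and RBM24, NPPC and PGR on the estradiol side. Each of these was also called above DMSO with that hormone. Not every extreme gene was: LOC441155 lay further toward estradiol than RBM24 and was not called against DMSO with estradiol (adjusted p = 0.253). LMO3 was not called against DMSO with dexamethasone (adjusted p = 0.151). Most differences were moderate, with a median log2 fold change of 0.75 among the genes higher with dexamethasone and -0.78 among those higher with estradiol. Throughout, a log2 fold change is dexamethasone minus estradiol unless another contrast is named, and ± is its standard error. A difference of more than 2-fold was fitted for 225 of the 705 genes, 140 higher with dexamethasone and 85 with estradiol. More than 4-fold separated 60 genes, 35 and 25. Single libraries moved the number of calls, to 167 and 164 when estradiol replicate 1 or 2 was left out and to 194 when dexamethasone replicate 2 was. Leaving out dexamethasone replicate 1 gave 847, of which 392 were higher with estradiol. The 109 genes called in each of these sets and without each DMSO or combination library comprised 79 higher with dexamethasone and 30 higher with estradiol.

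**Figure D1:**
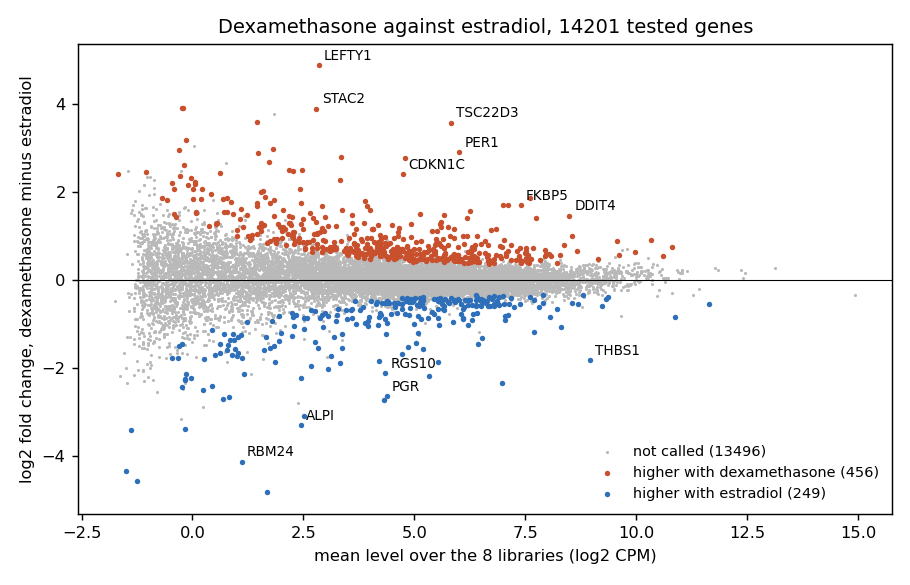
Mean level of each tested gene over all 8 libraries (log2 CPM, horizontal axis) against its log2 fold change between dexamethasone and estradiol (vertical axis). Each point is a gene, and the coloured points are the 456 genes called higher with dexamethasone and the 249 called higher with estradiol; the genes furthest from 0 lie at low to middle levels.

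The genes with the largest excess under dexamethasone included classical glucocorticoid targets, and channel, signalling and transcription genes. TSC22D3, the gene of the leucine zipper protein GILZ, was at 119 and 150 CPM with dexamethasone, 10.7 and 11.9 CPM with estradiol and 13.0 and 15.5 CPM in DMSO. PER1, a repressor of the circadian clock, was at 129 and 125 CPM with dexamethasone, 18.4 and 15.9 CPM with estradiol and 18.3 and 19.7 CPM in DMSO. In both genes the dexamethasone libraries stood far above all others given a single agent, and the estradiol libraries lay near DMSO. The excess of dexamethasone over estradiol was 11.9-fold for TSC22D3 (log2 fold change 3.57 ± 0.15, adjusted p = 6.47e-07) and 7.42-fold for PER1 (2.89 ± 0.11, adjusted p = 4.83e-07). FKBP5, an HSP90 co-chaperone that lowers the affinity of the glucocorticoid receptor for its hormone, was at 259 and 303 CPM against 90.7 and 84.0 CPM, a 3.22-fold excess (1.69 ± 0.11, adjusted p = 1.39e-05), with 92.1 and 84.8 CPM in DMSO.

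LEFTY1, a secreted antagonist of Nodal, had the largest difference among well-expressed genes. It was at 18.8 and 26.4 CPM with dexamethasone, 0.732 and 0.795 CPM with estradiol, and 0.840 and 3.40 CPM in DMSO (log2 fold change 4.87 ± 0.44, adjusted p = 0.000184). The DMSO libraries were themselves uneven, replicate 1 lying near the estradiol libraries. Reads may be split between LEFTY1 and LEFTY2, whose transcripts match over 1203 bases at 96.4% identity. LEFTY2 was also higher with dexamethasone, at 43.7 and 50.8 CPM against 24.4 and 28.2 CPM (0.84 ± 0.13, adjusted p = 0.00479), a call lost without estradiol replicate 1 (adjusted p = 0.0709) or dexamethasone replicate 2 (adjusted p = 0.0519).

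STAC2, an adaptor of voltage-gated calcium channels, was at 18.5 and 20.4 CPM with dexamethasone and 1.18 and 1.41 CPM with estradiol (3.89 ± 0.19, adjusted p = 2.06e-06). PPP1R1B, an inhibitor of protein phosphatase 1, was at 68.1 and 63.5 CPM against 9.01 and 10.3 CPM (2.77 ± 0.13, adjusted p = 2.06e-06). In both genes the replicates of a group lay close together. HIF3A, a member of the hypoxia-inducible factor family, differed by 2.96 ± 0.26, FAM107A, an actin-binding protein, by 2.87 ± 0.28, PRR15L by 2.79 ± 0.15 and NXPH3, a secreted ligand of neurexins, by 2.68 ± 0.22. GMPR, which converts GMP to IMP, differed by 2.49 ± 0.21 and BCL6, a transcriptional repressor, by 2.27 ± 0.17. The 15 genes with the largest excess under dexamethasone, which also include PPARGC1A, LMO3 and CDKN1C described below, kept their calls without each of the 8 libraries in turn.

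**Figure D2:**
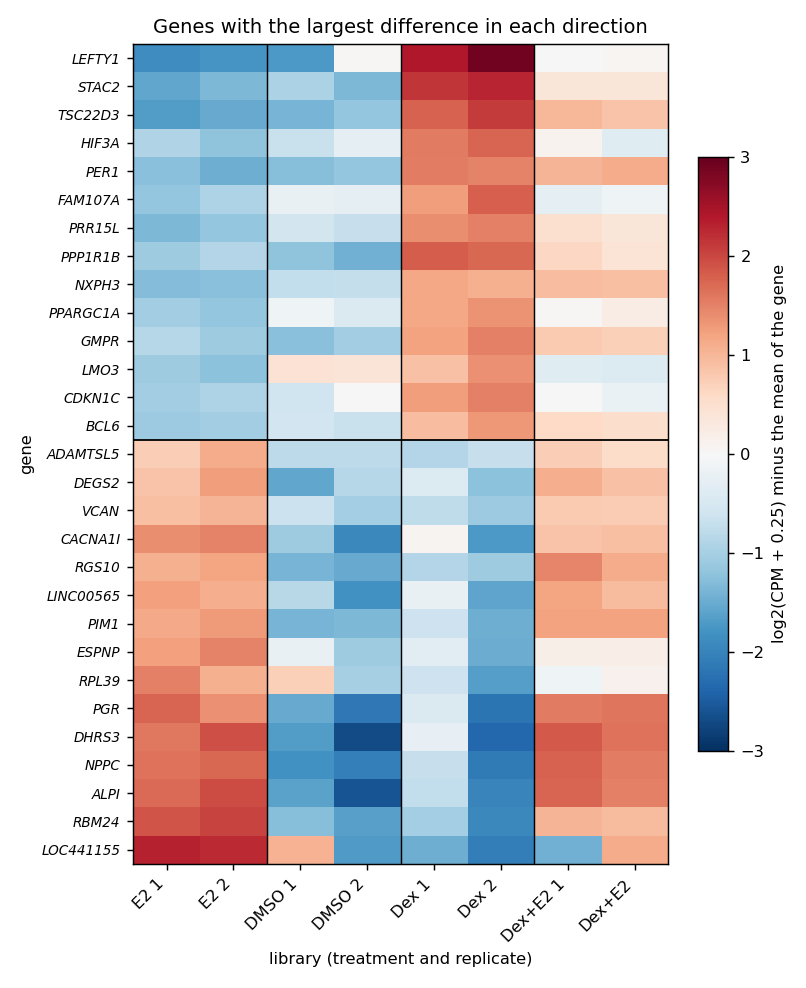
Genes with the largest excess under dexamethasone (upper rows) or under estradiol (lower rows), 29 in all, in all 8 libraries (columns); colour is log2(CPM + 0.25) minus the mean of the gene over the libraries. Dexamethasone libraries are high in the upper genes and estradiol libraries in the lower genes, and dexamethasone replicate 1 is above replicate 2 in most of the lower genes, as for PGR at 8.91 and 2.47 CPM.

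On the estradiol side the genes with the largest differences included RBM24, ALPI, NPPC and PGR, and beyond them the kinase gene PIM1 and the matrix gene VCAN. PGR, which encodes the progesterone receptor and is a textbook target of estrogen receptor alpha, was at 41.0 and 31.8 CPM with estradiol, 8.91 and 2.47 CPM with dexamethasone, and 4.09 and 2.53 CPM in DMSO. Both estradiol libraries and dexamethasone replicate 1 lay above both DMSO libraries. Estradiol exceeded dexamethasone 6.25-fold (log2 fold change -2.64 ± 0.37, adjusted p = 0.00312). Without dexamethasone replicate 1 the PGR value was -3.88, and without replicate 2 it was -2.02.

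RBM24, which encodes an RNA-binding protein, was at 4.84 and 5.34 CPM with estradiol and 0.433 and 0.112 CPM with dexamethasone (-4.14 ± 0.38, adjusted p = 0.000184). NPPC, the gene of C-type natriuretic peptide, was at 9.91 and 10.5 CPM against 1.78 and 0.505 CPM (-3.11 ± 0.33, adjusted p = 0.00057). ALPI, the intestinal alkaline phosphatase, was at 9.52 and 11.4 CPM against 1.54 and 0.505 CPM (-3.31 ± 0.36, adjusted p = 0.000619). These genes were near the floor of detection without estradiol, so their fold changes rest on few counts and on the split between the dexamethasone libraries: without dexamethasone replicate 1 they were -5.43 for RBM24, -4.32 for NPPC and -4.36 for ALPI. Without dexamethasone replicate 2, RBM24 was at -3.54 and NPPC at -2.51. The calls of all of them, and of PGR, held without each library in turn.

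Several genes on the estradiol side had dexamethasone replicates close to each other. RGS10, which speeds GTP hydrolysis by G proteins, was at 30.3 and 33.2 CPM with estradiol and 7.75 and 6.79 CPM with dexamethasone (-2.12 ± 0.15, adjusted p = 3.37e-05). PIM1, a serine/threonine kinase, was at 64.2 and 70.4 CPM against 18.8 and 10.3 CPM, a 4.60-fold excess of estradiol (-2.20 ± 0.20, adjusted p = 0.000195). VCAN, the matrix proteoglycan versican, was at 9.91 and 10.6 CPM against 2.94 and 2.30 CPM (-1.96 ± 0.19, adjusted p = 0.000252). In RGS10 and VCAN the dexamethasone libraries differed little between themselves, whereas in PIM1 replicate 1 was again the higher of the pair. ADAMTSL5, a secreted ADAMTS-like protein, differed by -1.88 ± 0.22, and it kept its call without each library in turn, as did RGS10, PIM1 and VCAN.

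The remaining genes among the 15 furthest toward estradiol were less stable. DHRS3, a retinaldehyde reductase, was at 31.8 and 40.4 CPM with estradiol and 8.72 and 1.85 CPM with dexamethasone (-2.74 ± 0.44, adjusted p = 0.00603). Its value was -4.28 without dexamethasone replicate 1 and -2.05 without replicate 2, and the call was lost without estradiol replicate 2 (adjusted p = 0.07). DEGS2, an enzyme of sphingolipid synthesis, differed by -1.90 ± 0.27 and the espin pseudogene ESPNP by -2.23 ± 0.34. Both calls were lost without estradiol replicate 2 (adjusted p = 0.0557 and 0.0653), and ESPNP moved to -3.06 without dexamethasone replicate 1. ESPNP shares 1333 bases at 96.6% identity with ESPN. CACNA1I, a T-type calcium channel gene, differed by -2.02 ± 0.40, and by -3.33 without dexamethasone replicate 1 and -1.38 without replicate 2, and did not pass in DESeq2 (adjusted p = 0.0553) or when an estradiol library was dropped (adjusted p = 0.106 and 0.108). RPL39, a ribosomal protein gene, was at 286 and 212 CPM with estradiol, 66.0 and 31.8 CPM with dexamethasone and 165 and 50.2 CPM in DMSO (-2.35 ± 0.46, adjusted p = 0.0167). Its DMSO libraries were far apart, its value was -2.97 without dexamethasone replicate 1, and its call was lost without either estradiol library or dexamethasone replicate 2 (adjusted p up to 0.147). The non-coding LINC00565 (-2.15) lost its call without the same libraries (adjusted p up to 0.132) and moved to -3.41 without dexamethasone replicate 1 and to -1.54 without replicate 2. LOC441155 was at 8.50 and 8.08 CPM with estradiol, 0.385 and 0.168 CPM with dexamethasone, 3.41 and 0.292 CPM in DMSO and 0.399 and 3.55 CPM in the combination. Its difference of -4.84 ± 1.03 was -5.57 without dexamethasone replicate 1 and lost its call in limma-voom (adjusted p = 0.0532) and without any estradiol or dexamethasone library (up to 0.18).

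Promoter sequences of FKBP5 and PGR are shown because these genes mark the response to each hormone and fall on opposite sides of the comparison. They run from 250 bases before to 50 bases after the RefSeq gene start in GRCh38.p14, 5′ to 3′ on the strand of the gene. Both genes lie on the minus strand, FKBP5 at chr6:35728534-35728833 and PGR at chr11:101129028-101129327. Capitals mark single arms of the receptor motifs, TGTTCT (or its reverse complement AGAACA) for the glucocorticoid receptor and GGTCA (or TGACC) for the estrogen receptor.
FKBP5: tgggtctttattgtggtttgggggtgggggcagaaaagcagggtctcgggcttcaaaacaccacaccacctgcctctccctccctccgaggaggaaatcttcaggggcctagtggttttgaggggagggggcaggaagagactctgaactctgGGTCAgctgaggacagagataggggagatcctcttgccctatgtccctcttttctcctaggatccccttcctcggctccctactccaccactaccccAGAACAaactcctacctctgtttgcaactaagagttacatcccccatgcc
PGR: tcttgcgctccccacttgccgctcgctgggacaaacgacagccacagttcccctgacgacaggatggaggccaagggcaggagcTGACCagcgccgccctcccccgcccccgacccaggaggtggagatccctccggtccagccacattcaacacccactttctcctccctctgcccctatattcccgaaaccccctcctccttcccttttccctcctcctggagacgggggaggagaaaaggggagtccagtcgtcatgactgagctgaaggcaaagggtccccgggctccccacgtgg
The FKBP5 window held 1 glucocorticoid receptor arm and 1 estrogen receptor arm, and the PGR window held 1 estrogen receptor arm. Other windows did not all hold the arm of their side. On the dexamethasone side PER1, TSC22D3 and BCL6 held 0 glucocorticoid receptor arms, and PER1 held 1 estrogen receptor arm. On the estradiol side RBM24 held 1 estrogen receptor arm and PIM1 held 0. Promoters in the RefSeq table matched 318 of the 456 genes higher with dexamethasone and 183 of the 249 higher with estradiol. The TGTTCT arm, searched on both strands, was in 39 (12.3%) of the former and 15 (8.2%) of the latter, against 909 (8.66%) of 10497 matched tested genes and 14.9% of all 27305 promoters of the same length. The GGTCA arm was in 85 (26.7%) and 62 (33.9%), against 34.3% of matched tested genes and 37.7% of all promoters. Full inverted repeats, that is AGAACA and TGTTCT or GGTCA and TGACC around any 3 bases, each of which also contains the single arm, were in 0 of these called promoters and in 0.00366% and 0.0659% of all promoters. These are descriptions of the letters in windows of 300 bases and not of receptor binding.

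The level in DMSO differed between the sides of the comparison. Among the 456 genes higher with dexamethasone, the mean DMSO level was nearer to dexamethasone than to estradiol in 198 (43.4%). Among the 249 genes higher with estradiol it was nearer to dexamethasone in 209 (83.9%). Over all tested genes this share was 48.2%. For the genes higher with dexamethasone, DMSO lay below both hormones in 42, above both in 32, between them and nearer to dexamethasone in 166, and between them and nearer to estradiol in 216. For those higher with estradiol these numbers were 86, 6, 123 and 34. The shares depended on dexamethasone replicate 1: without it, 154 of 455 genes higher with dexamethasone (33.8%) and 221 of 392 higher with estradiol (56.4%) had DMSO nearer to dexamethasone, against 38.3% of all tested genes. Without DMSO replicate 2 the share on the estradiol side was 65.2%, against 41.1% of all tested genes. Without DMSO replicate 1 the share on the dexamethasone side was 55.2%, against 59.5% of all tested genes. Each called gene was placed with the libraries that called it, so these shares are a description without a test.

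**Figure D3:**
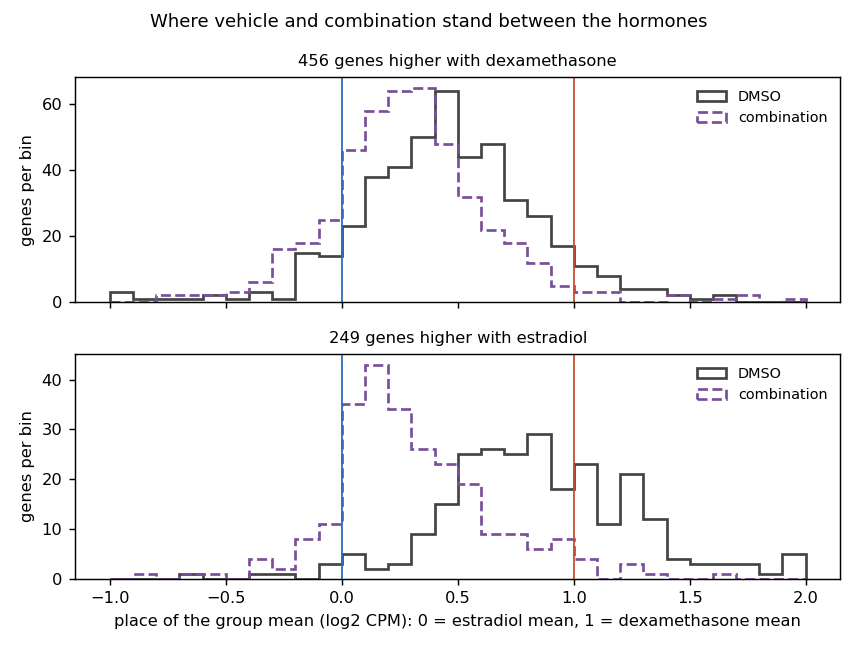
Place of the mean DMSO level (solid line) and combination level (dashed line) on the scale from estradiol (0) to dexamethasone (1), in log2 CPM, as the number of genes per bin for the 456 genes called higher with dexamethasone and the 249 called higher with estradiol; values beyond -1 and 2 are drawn at the ends. DMSO has a median of 0.45 in the upper panel and 0.84 in the lower, and the combination 0.28 and 0.26.

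Side by side with DMSO, the named genes fell into several patterns. The contrasts of each hormone with DMSO use the same DMSO libraries, and edgeR called 0.965% of tested genes for dexamethasone and 1.8% for estradiol. In the first pattern the dexamethasone level stood above DMSO and the estradiol level lay near it, as for PER1 and TSC22D3. SCNN1A, which encodes a subunit of the epithelial sodium channel, was at 337 and 378 CPM with dexamethasone, 97.8 and 99.4 CPM with estradiol and 89.0 and 87.0 CPM in DMSO (1.86 ± 0.09, adjusted p = 2.06e-06). MFSD2A, a transporter of lysophospholipids, was at 209 and 245, 65.4 and 74.1, and 67.2 and 71.4 CPM in the same order (1.70 ± 0.11, adjusted p = 1.39e-05). Both genes rose against DMSO with dexamethasone, and neither was called with estradiol.

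In the second pattern estradiol lay below DMSO and dexamethasone lay near it, so the genes were higher with dexamethasone without being called above the vehicle. BMF, a promoter of apoptosis of the BCL2 family, was at 18.3 and 25.3 CPM with dexamethasone, 6.98 and 5.70 CPM with estradiol, and 20.6 and 24.7 CPM in DMSO. Its difference was 1.79 ± 0.19 (adjusted p = 0.000483). Against DMSO, BMF was at -0.06 with dexamethasone (adjusted p = 0.936) and dropped by 1.85 with estradiol (adjusted p = 0.000676). DDIT4, an inhibitor of mTORC1 known as a glucocorticoid target, was also lowest with estradiol. It was at 530 and 538 CPM under dexamethasone, 190 and 200 CPM under estradiol and 443 and 462 CPM in DMSO. Both its dexamethasone libraries thus lay above both DMSO libraries. Its difference from estradiol was 1.45 ± 0.09 (adjusted p = 1.39e-05), and from DMSO 0.24 with dexamethasone (adjusted p = 0.389) and -1.22 with estradiol (adjusted p = 0.000221). FGFR2, a receptor for fibroblast growth factors, was at 78.8 and 93.8 CPM, 43.1 and 43.2 CPM, and 96.7 and 93.5 CPM with dexamethasone, estradiol and DMSO (1.00 ± 0.11, adjusted p = 0.000556). The estradiol libraries of BMF, DDIT4 and FGFR2 lay below both DMSO libraries. LMO3, a transcriptional cofactor with LIM domains, followed this pattern less closely. As in DDIT4, both its dexamethasone libraries lay above both DMSO libraries, here a larger step of 0.76 that was not called (adjusted p = 0.151). LMO3 was at 7.46 and 10.7 CPM with dexamethasone, 1.75 and 1.55 CPM with estradiol and 5.46 and 5.20 CPM in DMSO (2.46 ± 0.23, adjusted p = 0.000186). It dropped by 1.70 with estradiol against DMSO, a call lost without estradiol replicate 2 (adjusted p up to 0.104).

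CYP1A1, a cytochrome P450 that hydroxylates estrogens, was at 5.97 and 9.93 CPM with dexamethasone, 3.32 and 2.25 CPM with estradiol, and 9.97 and 14.7 CPM in DMSO. Both hormones had lower means than DMSO, and the estradiol libraries were the lowest of the 3 groups. The difference between the hormones was 1.52 ± 0.30 (adjusted p = 0.018), lost without either estradiol library or dexamethasone replicate 2 (adjusted p up to 0.147). ESR1 was at 199 and 184 CPM with dexamethasone, 125 and 121 CPM with estradiol, and 181 and 157 CPM in DMSO (0.64 ± 0.10, adjusted p = 0.00495). Its call was lost without either estradiol library (adjusted p = 0.051 and 0.0638). NR3C1 was at 60.0 and 58.9 CPM with dexamethasone and 65.5 and 58.3 CPM with estradiol, and did not pass the test (-0.06 ± 0.10, adjusted p = 0.761). NR3C1 shares 520 bases at 95.2% identity with AC105429.2.

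In a further pattern DMSO lay between the hormones. CDKN1C, the cell cycle inhibitor p57, was at 52.8 and 63.4 CPM with dexamethasone, 10.5 and 11.5 CPM with estradiol, and 14.4 and 21.7 CPM in DMSO, a 5.27-fold difference between hormones (2.40 ± 0.18, adjusted p = 5.63e-05). Against DMSO it was called with dexamethasone (1.68 ± 0.18, adjusted p = 0.000815), and with estradiol its value was -0.71 ± 0.19 (adjusted p = 0.107). PPARGC1A, a coactivator that drives mitochondrial biogenesis, was at 10.6 and 12.0 CPM, 2.08 and 1.90 CPM, and 4.15 and 3.31 CPM with dexamethasone, estradiol and DMSO (2.50 ± 0.19, adjusted p = 5.63e-05). It was called above DMSO with dexamethasone (1.60 ± 0.18), and its value with estradiol was -0.90 ± 0.21 (adjusted p = 0.0637). The dexamethasone and estradiol libraries of CDKN1C and PPARGC1A lay on opposite sides of both DMSO libraries. TGFB2, a ligand of the TGF-beta family, had 22.2 and 28.3, 11.9 and 10.9, and 18.1 and 18.9 CPM in the same order (1.15 ± 0.14, adjusted p = 0.00127), and JUNB, an AP-1 subunit, had 81.5 and 96.0, 35.3 and 44.0, and 58.4 and 75.3 CPM (1.16 ± 0.15, adjusted p = 0.00178). The step from DMSO to dexamethasone was 0.45 for TGFB2 (adjusted p = 0.251) and 0.41 for JUNB (adjusted p = 0.36), neither called. With estradiol both were called below DMSO, TGFB2 at -0.69 (adjusted p = 0.0352) and JUNB at -0.75 (adjusted p = 0.0312). The JUNB call was lost without either estradiol library or DMSO replicate 2 (up to 0.243), and the TGFB2 call whenever any library outside the dexamethasone group was left out (up to 0.308).

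**Figure D4:**
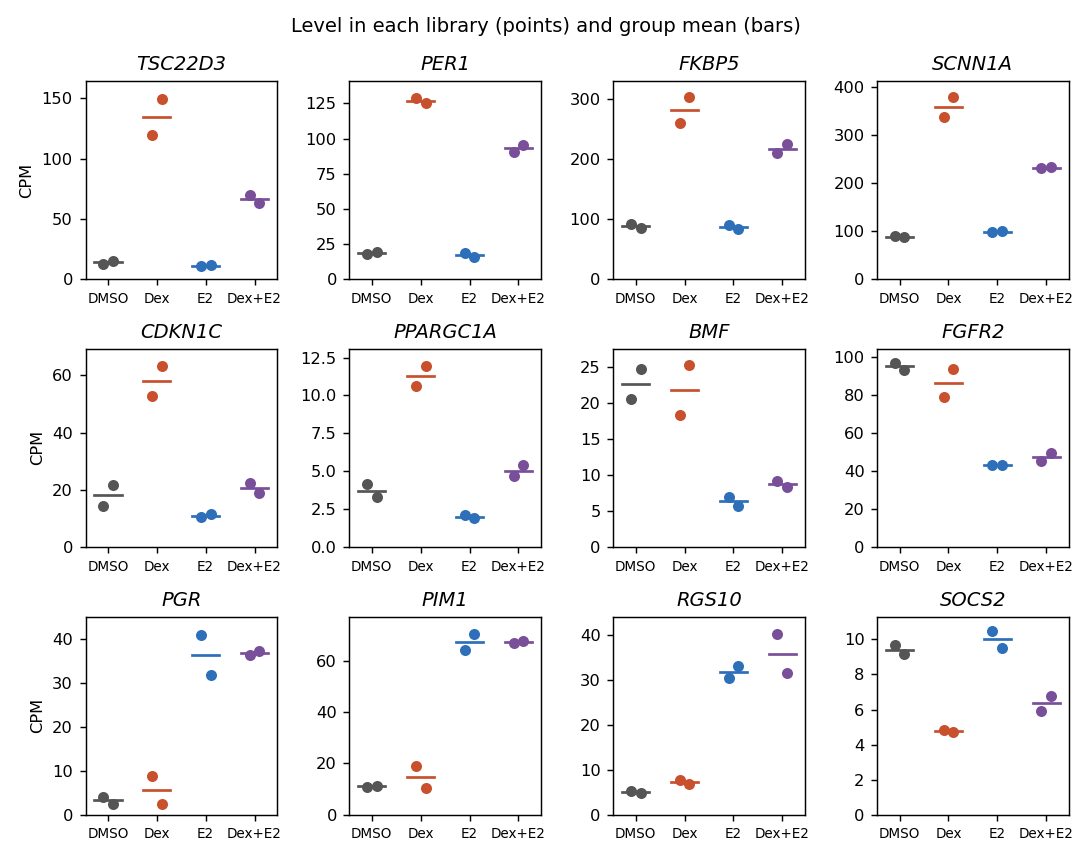
Levels of 12 genes in CPM (vertical axes, linear from 0) in DMSO, dexamethasone (Dex), estradiol (E2) and the combination (Dex+E2), with 1 point per library and a bar at each group mean. TSC22D3 is high in both groups given dexamethasone, PGR is high in both given estradiol, BMF is lowest with estradiol at 6.98 and 5.70 CPM, and SOCS2 is lowest with dexamethasone at 4.82 and 4.71 CPM.

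For genes higher with estradiol, the dexamethasone level often lay near DMSO. RGS10 was at 5.35 and 4.86 CPM in DMSO and PIM1 at 10.9 and 11.2 CPM, and both rose with estradiol (2.64 and 2.61, adjusted p = 3.24e-05 and 0.000267). CA12, a membrane carbonic anhydrase, was at 31.9 and 33.8 CPM with estradiol, 12.1 and 6.01 CPM with dexamethasone and 5.56 and 4.91 CPM in DMSO (-1.84 ± 0.23, adjusted p = 0.00145, and -2.45 without dexamethasone replicate 1). Both dexamethasone libraries of CA12 lay above both DMSO libraries. SOCS2, an inhibitor of cytokine signalling, and NR1D2, a repressor of the circadian clock, showed the converse order, with estradiol near DMSO and dexamethasone below. SOCS2 was at 4.82 and 4.71 CPM with dexamethasone, 10.5 and 9.54 CPM with estradiol and 9.66 and 9.19 CPM in DMSO (-1.07 ± 0.15, adjusted p = 0.00327). Its value against DMSO was -0.98 ± 0.15 with dexamethasone (adjusted p = 0.0106), and this did not pass when DMSO replicate 1 or any dexamethasone library was dropped (adjusted p up to 0.0653). NR1D2 was at 27.1 and 25.4, 52.2 and 44.3, and 52.9 and 46.3 CPM in the same order (-0.88 ± 0.13, adjusted p = 0.00444), and its call was lost without estradiol replicate 1 (adjusted p = 0.058).

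In EHF, TFCP2L1 and G0S2 the libraries of both hormones lay above both DMSO libraries. EHF, an epithelial ETS transcription factor, was at 33.0 and 31.7 CPM with dexamethasone, 13.9 and 13.6 CPM with estradiol and 9.50 and 7.20 CPM in DMSO (1.24 ± 0.14, adjusted p = 0.000722). Against DMSO it was at 1.96 with dexamethasone (adjusted p = 6.45e-05) and 0.72 ± 0.15 with estradiol (adjusted p = 0.039), the latter lost without either estradiol or either combination library or DMSO replicate 2 (adjusted p up to 0.236). TFCP2L1, a transcription factor of epithelia, was at 61.8 and 39.0 CPM, 30.0 and 29.7 CPM, and 13.3 and 12.7 CPM (0.76 ± 0.18, adjusted p = 0.0346). Against DMSO it rose with dexamethasone (1.96, adjusted p = 0.000455) and with estradiol (1.20, adjusted p = 0.00826, lost without either estradiol library, up to 0.108). The direct call on TFCP2L1 was lost without either estradiol library (adjusted p = 0.193 and 0.158) or dexamethasone replicate 1 (adjusted p = 0.0945). G0S2, an inhibitor of triglyceride lipase, was at 62.5 and 25.2 CPM with dexamethasone, 104 and 117 CPM with estradiol and 17.5 and 12.6 CPM in DMSO (-1.32 ± 0.31, adjusted p = 0.035). Against DMSO its value with dexamethasone did not pass (1.55, adjusted p = 0.0616), and it rose with estradiol (2.88, adjusted p = 0.00165). The difference between the hormones was -2.13 without dexamethasone replicate 1, and its call was lost in DESeq2 (adjusted p = 0.0702) and without either estradiol library or dexamethasone replicate 2 (up to 0.159). POTEF, a POTE family gene with actin homology, did not separate the hormones (-0.74 ± 0.31, adjusted p = 0.206): it was at 1.40 and 0.786 CPM with dexamethasone and 1.75 and 1.94 CPM with estradiol, against 75.9 and 99.8 CPM in DMSO. POTEF shares 3536 bases at 99.3% identity with POTEE, so its counts are uncertain.

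When both hormones were given together, levels of the genes that separate them were more often nearer to estradiol. The combination was nearer to estradiol in 355 of the 456 genes higher with dexamethasone and in 189 of the 249 higher with estradiol, against 8703 of all 14201 tested genes. The share nearer to dexamethasone was thus 22.1% and 24.1%, with 38.7% over all genes. Without dexamethasone replicate 1 these shares were 13.6%, 12.8% and 31.3%. The share on the estradiol side was also lower without dexamethasone replicate 2 (9.43%), combination replicate 1 (13.4%) or estradiol replicate 1 (15.7%). Over all tested genes the share was 40.1%, 34.9% and 43.2% in the same order. PER1, at 90.6 and 95.7 CPM in the combination, and FKBP5, at 209 and 225 CPM, kept most of the dexamethasone level. TSC22D3 was at 70.0 and 63.5 CPM, between the hormones. LEFTY1 at 3.28 and 3.50 CPM, STAC2 at 5.15 and 5.21 CPM and CDKN1C at 22.3 and 19.0 CPM lay between the hormones and well below the dexamethasone level. BMF at 9.23 and 8.39 CPM, FGFR2 at 45.5 and 49.3 CPM, TGFB2 at 12.6 and 12.1 CPM and JUNB at 44.5 and 40.4 CPM lay close to the estradiol level. PGR was at 36.5 and 37.3 CPM, RGS10 at 40.2 and 31.4 CPM and PIM1 at 66.7 and 67.7 CPM, all at about the estradiol level. SOCS2, at 5.95 and 6.78 CPM, lay nearer to dexamethasone. G0S2 at 215 and 183 CPM and TFCP2L1 at 93.8 and 105 CPM stood above both single hormones.

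Known targets of each receptor were counted next, against the background of 4.96% called. These lists, like those that follow, were compiled with earlier results of these data known, so their counts are descriptions. Of 46 tested glucocorticoid targets, 19 were higher with dexamethasone and 2 with estradiol, with a median log2 fold change of 0.35, against 0.002 over all tested genes. The members described above include TSC22D3, PER1, FKBP5, SCNN1A, CDKN1C and DDIT4. The 2 in the other direction were TGM2, a transglutaminase, at -0.79 and CEBPB, a transcription factor, at -0.43, named after their values were seen. Of 40 tested estrogen targets, 17 were higher with estradiol, with a median of -0.36, and the other 23 did not pass. GREB1, an estrogen-induced growth regulator, was at 28.1 and 29.9 CPM with estradiol, 17.7 and 6.85 CPM with dexamethasone and 8.03 and 6.71 CPM in DMSO (-1.23 ± 0.30, adjusted p = 0.0409). GREB1 was -2.08 without dexamethasone replicate 1, and its call was lost in DESeq2 (adjusted p = 0.104) and without either estradiol library or dexamethasone replicate 2 (up to 0.178). Without an estradiol library or dexamethasone replicate 2, between 12 and 13 of the glucocorticoid targets and between 7 and 11 of the estrogen targets were called.

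**Figure D5:**
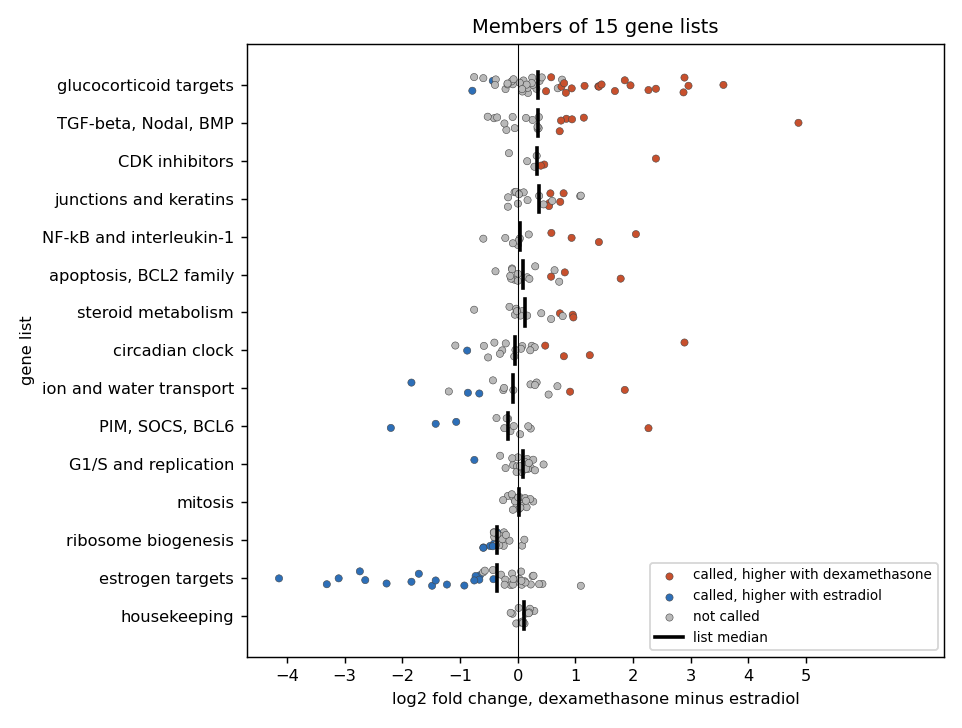
Log2 fold change between dexamethasone and estradiol (horizontal axis) of each tested member of 15 gene lists (rows); points are genes, coloured where called, and black bars are list medians. The median is 0.35 for glucocorticoid targets and -0.36 for estrogen targets and ribosome biogenesis genes, and 0 of the mitosis and housekeeping genes are called.

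Among 15 tested steroid receptors and chaperones, FKBP5 and ESR1 were higher with dexamethasone, PGR and 1 chaperone gene were higher with estradiol, and 11 did not pass (median -0.17). Of 19 coregulators and pioneer factors, 3 were higher with dexamethasone and 2 with estradiol (median -0.06). The related coactivators PPARGC1A and PPARGC1B fell on opposite sides. PPARGC1B was at 29.7 and 28.5 CPM with estradiol and 16.6 and 12.6 CPM with dexamethasone (-0.99 ± 0.15, adjusted p = 0.00389), a call lost without estradiol replicate 1 (adjusted p = 0.0502).

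Of 19 clock genes, 4 were higher with dexamethasone and 1, NR1D2, with estradiol (median -0.04). Beside PER1, DBP, a clock output transcription factor, was at 5.30 and 7.30 CPM with dexamethasone and 2.36 and 2.87 CPM with estradiol (1.25 ± 0.26, adjusted p = 0.0225). The DBP call was lost without either estradiol library or dexamethasone replicate 2 (adjusted p up to 0.186). Of 15 ion and water transport genes, 2 were higher with dexamethasone and 3 with estradiol (median -0.08). The dexamethasone side included SCNN1A and the estradiol side CA12.

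In the TGF-beta and Nodal list 6 of 19 tested genes were higher with dexamethasone and none was called higher with estradiol (median 0.34). They comprised LEFTY1, LEFTY2 and TGFB2 and the inhibitors of DNA binding ID1 (0.73), ID2 (0.75) and ID3 (0.94), the last group named after their values were seen. Between 2 and 3 of the 6 were called without an estradiol library or dexamethasone replicate 2. In the receptivity and decidual list, which also holds LEFTY1 and LEFTY2, 3 of 16 were higher with dexamethasone (median 0.17), among them ITGB3, an integrin subunit of the receptive endometrium. ITGB3 was at 32.8 and 38.6 CPM with dexamethasone, 23.9 and 22.6 CPM with estradiol and 32.5 and 39.4 CPM in DMSO (0.62 ± 0.12, adjusted p = 0.0188). This call was lost without either estradiol library or dexamethasone replicate 2 (adjusted p up to 0.165).

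Growth factor and cytokine signalling genes differed in both directions. Of 20 FGF and EGF pathway genes, FGFR2, ERBB2 and 1 further gene were higher with dexamethasone, while the ligand TGFA was higher with estradiol (median -0.05). TGFA was at 469 and 479 CPM with estradiol and 270 and 176 CPM with dexamethasone (-1.09 ± 0.18, adjusted p = 0.0072), a call lost if an estradiol library was left out (adjusted p up to 0.0746). ERBB2, a receptor tyrosine kinase, was at 238 and 248 CPM with dexamethasone and 172 and 182 CPM with estradiol (0.46 ± 0.09). Of 13 cytokine feedback and PIM kinase genes, BCL6 was higher with dexamethasone and 3, including PIM1 and SOCS2, with estradiol (median -0.17). Of 15 immediate early genes, JUNB was higher with dexamethasone and the zinc finger factors EGR1 and EGR3 with estradiol (median 0.07). EGR1 was at 82.6 and 94.3 CPM with estradiol against 56.8 and 54.2 CPM (-0.67 ± 0.10, adjusted p = 0.00479), a call lost without estradiol replicate 2 (adjusted p = 0.0576) or dexamethasone replicate 2 (adjusted p = 0.0516). EGR3 was at 2.42 and 2.52 CPM against 0.963 and 0.786 CPM (-1.48 ± 0.27), lost without either estradiol library or dexamethasone replicate 2 (adjusted p up to 0.102). ERBB2 lost its call without the same libraries.

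Of 12 genes of the insulin-like growth factor system, the binding proteins IGFBP3 and IGFBP4 were called in opposite directions (median 0.11). IGFBP3 was at 446 and 654 CPM with dexamethasone and 276 and 275 CPM with estradiol (1.00 ± 0.15, adjusted p = 0.00473), lost without either estradiol library (adjusted p = 0.069 and 0.0672). IGFBP4 was low throughout, at 2.53 and 1.94 CPM with estradiol and 0.722 and 0.617 CPM with dexamethasone (-1.72 ± 0.35, adjusted p = 0.0207), lost without any dexamethasone or estradiol library (adjusted p up to 0.147). Of 15 Wnt genes, the ligand WNT7A (0.56 ± 0.11) and the receptor FZD7 (0.44 ± 0.11) were higher with dexamethasone and the receptor FZD5 (-0.81 ± 0.15) with estradiol (median -0.10). WNT7A and FZD5 lost their calls without estradiol replicate 1 or dexamethasone replicate 2 (adjusted p up to 0.123), and FZD7 without any estradiol or combination library or dexamethasone replicate 2 and in limma-voom (adjusted p up to 0.328).

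Inhibitors of cyclin-dependent kinases were higher with dexamethasone in 3 of 7 tested members (median 0.33). Of the other cell cycle lists, G1/S and replication had 4.55% called and mitosis 0%, against 4.96% of all tested genes. Beside CDKN1C, CDKN1A was at 50.3 and 50.8 CPM with dexamethasone, 36.7 and 36.8 CPM with estradiol and 33.1 and 36.8 CPM in DMSO (0.46 ± 0.10, adjusted p = 0.0229). CDKN1B differed by 0.40 ± 0.10 (adjusted p = 0.0404). CDKN1C alone among these held without each library, whereas CDKN1A and CDKN1B lost their calls without any estradiol or combination library or dexamethasone replicate 2, and CDKN1A also without dexamethasone replicate 1 (adjusted p up to 0.137 and 0.252). Of 22 genes of G1/S and replication, only CCND2, a D-type cyclin, was called, at 113 and 104 CPM with estradiol and 77.2 and 51.0 CPM with dexamethasone (-0.75 ± 0.16, adjusted p = 0.0222), and it was lost without either estradiol library or dexamethasone replicate 2 (adjusted p up to 0.161). Of 20 mitosis genes edgeR, DESeq2 and limma-voom each called 0. In edgeR 2 of them had an unadjusted p under 0.05, against 3050 of all 14201 tested genes.

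Apoptosis genes of both signs were higher with dexamethasone in 3 of 16 (median 0.08): the promoters of apoptosis BMF and FAS and the inhibitor BCL2L1. FAS, a death receptor, was at 35.7 and 37.6 CPM with dexamethasone, 26.2 and 23.0 CPM with estradiol, and 35.4 and 35.5 CPM in DMSO (0.58 ± 0.10, adjusted p = 0.0107). BCL2L1 was at 108 and 142 CPM against 67.1 and 74.4 CPM (0.82 ± 0.14, adjusted p = 0.00671). The FAS call was lost when estradiol replicate 2 was dropped (adjusted p = 0.093) or dexamethasone replicate 2 (adjusted p = 0.0803), and BCL2L1 without either estradiol library or dexamethasone replicate 2 (adjusted p up to 0.0922).

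Ribosome biogenesis genes were higher with estradiol in 6 of 20 (median -0.36). RRP12, a factor of ribosomal subunit export, was at 134 and 143 CPM with estradiol and 101 and 81.9 CPM with dexamethasone (-0.59 ± 0.11, adjusted p = 0.0122). UTP20, a processing factor of the small subunit, differed by -0.60 ± 0.11. The ribosomal RNA precursor gene RNA45S5 did not pass (-0.35 ± 0.29, adjusted p = 0.508). It was at 31989 and 14364 CPM with dexamethasone, 31431 and 27620 CPM with estradiol and 35290 and 41130 CPM in DMSO. Without dexamethasone replicate 1 its value was -1.04, which rests on replicate 2, the lowest of these libraries. Most calls in this list were lost without either estradiol library or dexamethasone replicate 2, as were most calls over all genes. Over the alternatives run, RRP12 lay between -0.76 and -0.45 and UTP20 between -0.73 and -0.48.

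Keratin and junction genes were higher with dexamethasone in 5 of 19 (median 0.37). KRT18 was at 916 and 1050 CPM with dexamethasone and 658 and 673 CPM with estradiol (0.57 ± 0.12), KRT7 at 16.3 and 18.9 CPM against 9.18 and 11.0 CPM (0.80 ± 0.17), and KRT80 at 162 and 193 CPM against 95.9 and 117 CPM (0.74 ± 0.14). The summed epithelial markers were between 4550 and 5040 CPM with dexamethasone and between 3480 and 3680 CPM with estradiol, and DMSO lay at 3510 and 4070 CPM; 5 of the 10 markers were called higher with dexamethasone (median 0.46), but 0 without either estradiol library and 1 without dexamethasone replicate 2. The part of this summed marker level in the keratin counts was not tested. Without estradiol replicate 1 or dexamethasone replicate 2, 0 of the 19 junction genes were called, and 1 without estradiol replicate 2. KRT18 also shares 1167 bases at 95.2% identity with KRT18P11.

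Of 20 Hippo, mesenchymal and actin genes, 3 were higher with dexamethasone and THBS1 with estradiol (median 0.09). THBS1, the matrix glycoprotein thrombospondin, was at 845 and 819 CPM with estradiol, 356 and 112 CPM with dexamethasone, and 162 and 89.9 CPM in DMSO (-1.83 ± 0.41, adjusted p = 0.0307). In THBS1 the first replicate was higher than the second in the dexamethasone and DMSO groups, and its value was -2.89 without dexamethasone replicate 1 and -1.22 without replicate 2. The Hippo targets CTGF (1.10 ± 0.20) and CYR61 (0.75) were among those higher with dexamethasone, CTGF at 10.4 and 13.8 CPM against 6.02 and 5.25 CPM. The calls of CTGF, CYR61 and THBS1 were lost without either estradiol library or dexamethasone replicate 2 (adjusted p up to 0.195).

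Of 11 NF-kB and inflammatory genes, 4 were higher with dexamethasone (median 0.04). NFKBIA, which holds NF-kB in the cytoplasm, was at 106 and 114 CPM with dexamethasone, 39.5 and 43.5 CPM with estradiol and 48.3 and 51.6 CPM in DMSO (1.41 ± 0.10, adjusted p = 3.37e-05). NFKBIA kept its call without each library. IL1R1, the signalling receptor of interleukin 1, differed by 0.58 ± 0.12 and TNFRSF11B, a decoy receptor of the TNF family, by 0.93 ± 0.20. IL1R1 lost its call without either estradiol library or dexamethasone replicate 2 (adjusted p up to 0.202), and TNFRSF11B if estradiol replicate 2 was left out or dexamethasone replicate 2 (adjusted p up to 0.152).

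Of 5 tested metallothionein and zinc genes, the metal-binding proteins MT2A (0.94 ± 0.15) and MT1X (1.16 ± 0.19) were higher with dexamethasone and the zinc exporter SLC30A1 (-0.88 ± 0.15) was higher with estradiol. MT1G (1.00 ± 0.35, adjusted p = 0.14) and MT1F (0.57 ± 0.25, adjusted p = 0.215) did not pass. MT2A was at 28.4 and 35.4 CPM with dexamethasone and 15.9 and 17.4 CPM with estradiol, and SLC30A1 at 52.7 and 36.8 CPM against 89.6 and 75.6 CPM. MT2A and MT1X lost their calls without either estradiol library or dexamethasone replicate 2 (adjusted p up to 0.0922), and SLC30A1 without estradiol replicate 1 or dexamethasone replicate 2 (adjusted p up to 0.107).

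Of 14 steroid metabolism genes 3 were higher with dexamethasone (median 0.12). AKR1C2, a hydroxysteroid dehydrogenase, was at 24.4 and 29.3 CPM with dexamethasone and 14.1 and 13.4 CPM with estradiol (0.96 ± 0.14), a call lost without estradiol replicate 2 (adjusted p = 0.0599). It shares 3770 bases at 97.1% identity with AKR1C1. The sulfotransferases SULT1E1, which inactivates estrogens, and SULT2B1 differed by 0.95 ± 0.21 and 0.73 ± 0.16. The SULT1E1 call was lost in DESeq2 (adjusted p = 0.112) and without any dexamethasone, estradiol or combination library (up to 0.164), and that of SULT2B1 without either estradiol library or dexamethasone replicate 2 (up to 0.203). Of 7 genes of the aryl hydrocarbon receptor pathway, only CYP1A1 was called; the receptor AHR (-0.16 ± 0.14) and its repressor AHRR (0.66 ± 0.30, adjusted p = 0.243) did not pass.

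Few genes of the remaining lists differed. Of 18 lipid genes MFSD2A was higher with dexamethasone and G0S2 with estradiol (median -0.06). Of 21 glycolysis and hypoxia genes HK2, a hexokinase, was called, at 99.4 and 102 CPM with estradiol and 77.4 and 57.8 CPM with dexamethasone (-0.58 ± 0.13), and of 16 unfolded protein response and ATF4 genes CHAC1, a glutathione-degrading enzyme, was called (0.61 ± 0.12). HK2, which shares 2755 bases at 96.0% identity with HK2P1, and CHAC1 lost their calls without either estradiol library or dexamethasone replicate 2. EdgeR, DESeq2 and limma-voom each called 0 of 14 interferon and antigen presentation genes, with 0 at an unadjusted p under 0.05, and 0 of 14 housekeeping genes, also with 0 at an unadjusted p under 0.05. The same tools called 0 of 5 fibroblast and 0 of 2 leukocyte markers, of which 1 and 0 had an unadjusted p under 0.05. Over all 14201 tested genes, 3050 had an unadjusted p under 0.05 in edgeR. Of 3 tested endothelial markers KDR, a receptor for vascular growth factor, was higher with dexamethasone (2.95 ± 0.45, adjusted p = 0.00474), on 27 and 26 counts with dexamethasone and 3 and 4 with estradiol, and its call was lost without either estradiol library (adjusted p = 0.058 and 0.0672).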

How the data were processed

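RNA was sequenced from 8 samples of Ishikawa cells with a stranded mRNA kit, per the labels' protocols. The authors deposited raw counts per gene, made with HISAT2 2.0.4, Subread and featureCounts 1.5.1 on build hg19, per the submitters' processing notes, which also name DESeq2 1.14.1. Neither the annotation nor the strand setting of the counting is stated, so overlapping and antisense genes may share reads. The table of normalised values was not used here. Columns were assigned by name. Both combination columns carry the number 1, and the one that does not match the label of replicate 1 was taken as a library without a number.

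Counts were fitted with edgeR 4.0.16 (R 4.3.3): filterByExpr by group, which kept 14201 of 26364 genes, TMM scaling, and the quasi-likelihood model with all 8 libraries in 4 groups (4 residual degrees of freedom), with Benjamini-Hochberg adjustment over all tested genes and a threshold of 0.05. Contrasts were dexamethasone against estradiol and each against DMSO. Standard errors come from the fold change and the F statistic. The place of DMSO and of the combination used mean log2 CPM with a prior count of 2. Alternatives were DESeq2 1.42.0, limma-voom (limma 3.58.1), other scalings, filters and library sets, and leaving out each library. The place of DMSO and of the combination without single libraries was added after seeing the data. A group left with 1 library is assumed to vary like the others.

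The comparison and the 33 gene lists were chosen with earlier results of these data known. Named genes are the 15 with the largest difference in each direction (called, mean log2 CPM above 1, no overlap between libraries), from each list the 3 called members of smallest p, or the member of smallest p where none was called, all members of lists with 8 or fewer tested, and 15 fixed genes. Some genes that this rule takes are not reported here. On simulated data over 13911 genes the test recovered 48% of 50 genes changed 1.5-fold, 90% of 50 changed 2-fold and 100% of 100 changed 4-fold, all above 2 CPM, with 6 false calls among 175. Each simulated gene was drawn independently from its DMSO mean and the spread fitted by edgeR, with changes only in the dexamethasone group. A shift shared by many genes of a library, as seen between the dexamethasone replicates, was not simulated. These rates may therefore not hold for the real comparison. Near-identical transcripts (300 bases or more at 95% identity or more) were searched with blastn in GENCODE 29. Promoters are from RefSeq, GRCh38.p14.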

Additional observations from a re-analysis of the deposited data

How the results depend on the processing

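No gene called between dexamethasone and estradiol changed direction under any alternative. Against 705 calls, edgeR called 1152 (686 higher with dexamethasone and 466 with estradiol) with no filter beyond 1 count, and 1147, with 496 higher with estradiol, from the 4 dexamethasone and estradiol libraries alone. Adding the DMSO libraries gave 492, of which 158 were higher with estradiol. DESeq2 called 814 and limma-voom 677, sharing 628 and 664 with the main test. Upper-quartile scaling gave 741 calls, of which 529 were higher with dexamethasone and 212 with estradiol (71.4% against 64.7%), and without dexamethasone replicate 1 that share was 53.7%. Leaving out 1 library at a time gave between 164 and 957 calls, between 115 and 583 higher with dexamethasone and between 49 and 392 higher with estradiol. Over the same omissions DMSO was nearer to dexamethasone in 33.8% to 55.2% of the genes higher with dexamethasone and in 56.4% to 96.1% of those higher with estradiol. The combination was nearer to dexamethasone in 13.6% to 32.2% of the genes higher with dexamethasone and in 9.43% to 27.3% of those higher with estradiol. Over all tested genes these shares were 38.3% to 59.5% for DMSO and 31.3% to 47% for the combination. The cause of these shifts was not tested. The fits also differed in residual degrees of freedom, and the fit with no filter tested more genes. Of 88 called genes that are named by the rule, 36 kept their call under every alternative run and 52 lost it under at least 1. Same-numbered libraries did not deviate together in all pairs of groups: across genes the correlation of the replicate differences was 0.24 for DMSO and dexamethasone, 0.15 for DMSO and estradiol and 0.05 for dexamethasone and estradiol, and 0.41, 0.30 and 0.07 over genes with a mean log2 CPM above 1. The numbers were therefore not taken as pairing, and a fit with the replicate number as a block, on the 6 numbered libraries of these groups, called 1543 genes (842 and 701), all 705 among them. This block was fitted only for dexamethasone against estradiol, so the calls against DMSO were not examined with it. Depth limits genes under about 1 CPM, such as KDR with 3 and 4 counts under estradiol.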
